A study of Homo sapiens with 6 samples.

Results

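Transcripts of 10 BCL2 family genes were measured in MDA-MB-231, a triple-negative human line from breast cancer with mesenchymal features, with and without vitamin C. The genes were chosen by name: the pro-survival members BCL2, BCL2L1, BCL2L2 and MCL1, the effectors BAX and BAK1, and the BH3-only members BCL2L11, BID, PMAIP1 and BBC3. Each was found under its Ensembl identifier among the 60675 genes of the count files, and all 10 were among the 15261 genes tested after the filter on low counts. The control group was 3 wells of the line grown without added vitamin C, and the treated group was 3 wells given 100 μM vitamin C as sodium ascorbate for 3 days, with fresh medium each day. Both groups were the same cell line and were sequenced as total RNA depleted of ribosomal RNA. Whether the 3 wells of a group came from separate experiments is not stated for these libraries, so the p-values speak only to variation among these wells, and that variation may be technical.

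BCL2 family proteins decide at the outer membrane of mitochondria whether a cell enters apoptosis. BAX and BAK1, when activated, form pores that release cytochrome c into the cytosol, and the pro-survival proteins hold them in check by binding. BH3-only proteins carry a single short helix, the BH3 domain, with which they occupy the groove of the pro-survival proteins or activate BAX and BAK1, and each of them binds its own selection of partners. In cells whose death receptors are engaged, caspase-8 cleaves BID, and the cleaved protein carries the signal from the receptor to mitochondria. The study asked whether this mitochondrial arm takes part in apoptosis of breast cancer cells under vitamin C. It followed Bax and Bcl-xL (the product of BCL2L1) as proteins, and also caspase activation and cytochrome c release, which it reported as increased. The RNA counts show what happened to the transcripts of BAX, BCL2L1 and the other members. Reads were counted per gene, so splice forms with opposite functions, such as the long and short forms of BCL2L1 and of MCL1, were summed.

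Gene counts ranged from 17664345 to 22373591 in the control libraries and from 13434130 to 19553914 in the vitamin C libraries. Unmapped read pairs made up 24.2%, 34.4% and 32.9% of the control libraries 1 to 3 and 40.7%, 49.5% and 24.7% of the treated libraries 1 to 3. The least counted member, BBC3, had 112 to 233 counts per library and the most counted, MCL1, had 3612 to 8043. Levels are given as CPM, the counts after scaling libraries to one size with TMM factors. Genes that mark the line were present, with VIM, a filament protein typical of mesenchymal cells, at 1276 ± 45.3 CPM and CAV1, a membrane scaffold protein, at 750 ± 66.5 CPM in control wells (SD, n = 3). ESR1, the oestrogen receptor gene, had 0 counts in every library, and PGR and FOXA1 had at most 4 and 1 counts, while ERBB2 was at 40.3 ± 1.35 CPM and GATA3 at 4.65 ± 0.312 CPM. None of 6 mesenchymal and 3 luminal markers tested passed the edgeR threshold or that of DESeq2. At an unadjusted p under 0.05 in edgeR, CAV1 was lower, CD44 was higher and all 3 luminal markers were higher. Over all genes tested, 27.4% had such a p in either direction. The part of these markers in the values of the members was not tested.

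Of the 10 members, MCL1 was lower after vitamin C treatment, no member was higher, and 9 missed the threshold of an adjusted p under 0.05 in edgeR. In the same fit, 7.08% of all genes tested were called, 3.48% lower and 3.6% higher, and the members' count of 1 is a single gene. DESeq2 called MCL1 and PMAIP1 lower and no member higher, where it called 10.7% of the genes it tested, 6.36% lower. Both tools called MCL1 alone among the members, against 7.19% of the genes both tested, 3.81% lower. At an unadjusted p under 0.05 these 2 members were lower and none was higher, against 27.4% of all genes tested, of which the lower ones made 13.1% of the total. The wells of the groups did not overlap for MCL1, and no member lay higher in every treated well, while 32.3% of all genes tested did not overlap, 16.6% lower and 15.7% higher after treatment. In RNA of whole wells, fewer cells of a kind and less RNA per cell cannot be told apart. Over the members the median of the log2 fold change (log2FC, treated against control) was -0.06 and 8 of 10 values lay below 0, with a median of 0.02 and 47.6% below 0 over all genes tested. The plot of members by well shows these values for each library.

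**Figure D1:**
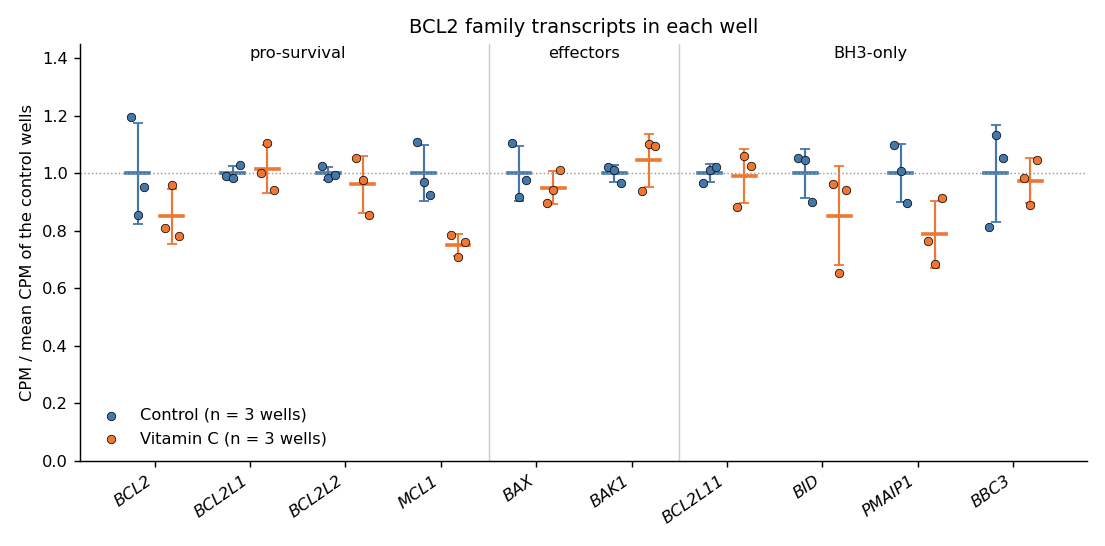
Normalized CPM of each member in each of the 6 wells, relative to the control mean of that gene, with genes ordered by role. Each point is a well, and the lines and bars give the mean and SD of a group (n = 3 each). The 3 MCL1 points of the vitamin C group lie below all 3 control points, and the groups overlap for the other 9 genes.

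Promoter sequences from RefSeq (GRCh38.p14) were matched for 8 of the 10 members, and those of MCL1 and BCL2L2 were not analysed here. The 3 shown are those of PMAIP1, the member with the next smallest p-value after MCL1, and of BAX and BCL2L1, whose proteins the study followed. Each is 300 bases long, lies mostly upstream of the annotated start and includes it, and is written 5′ to 3′ on the strand of the gene. PMAIP1 lies at chr18:59899746-59900045 on the plus strand, BAX at chr19:48954625-48954924 on the plus strand, and BCL2L1 at chr20:31723914-31724213 on the minus strand. Capitals mark the letters ACGTG and GCGTG, the core of sites that hypoxia-inducible factors bind, and TGACG, the core of the cAMP response element, each on either strand.
PMAIP1: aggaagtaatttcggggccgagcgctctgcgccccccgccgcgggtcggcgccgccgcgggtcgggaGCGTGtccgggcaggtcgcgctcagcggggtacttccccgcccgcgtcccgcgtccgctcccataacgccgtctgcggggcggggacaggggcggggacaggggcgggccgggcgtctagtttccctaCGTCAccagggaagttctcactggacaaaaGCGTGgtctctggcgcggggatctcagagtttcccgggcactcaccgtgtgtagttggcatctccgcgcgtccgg
BAX: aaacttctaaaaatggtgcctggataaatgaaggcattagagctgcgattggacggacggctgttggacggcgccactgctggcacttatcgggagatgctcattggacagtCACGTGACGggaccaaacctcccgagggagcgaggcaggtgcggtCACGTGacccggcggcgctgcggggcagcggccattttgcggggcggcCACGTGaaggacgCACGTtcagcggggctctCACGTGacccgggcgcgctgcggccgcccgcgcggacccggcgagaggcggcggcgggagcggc
BCL2L1: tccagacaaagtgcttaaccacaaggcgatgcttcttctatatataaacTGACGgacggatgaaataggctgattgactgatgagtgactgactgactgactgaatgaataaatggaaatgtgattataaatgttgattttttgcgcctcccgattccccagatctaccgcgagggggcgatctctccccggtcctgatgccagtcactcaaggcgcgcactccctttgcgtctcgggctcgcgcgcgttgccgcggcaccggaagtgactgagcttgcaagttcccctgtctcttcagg

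The PMAIP1 window held 2 matches to GCGTG, 1 to TGACG and 4 to GGGCGG, the GC box bound by SP1. The BAX window held 9 matches to ACGTG counted over both strands, which overlap since 8 of them form 4 copies of the E-box CACGTG. It also held 1 match to TGACG, which shares bases with the first E-box. The BCL2L1 window held 1 match to TGACG and none to either hypoxia core, as well as 2 to TATAAA, the TATA box. Among the 8 members matched, 2 held ACGTG, 3 held GCGTG, 4 held TGACG, 5 held GGGCGG, 2 held CACGTG and 1 held TATAAA. Of 35116 promoters of the same length, 21.4% held ACGTG, 36.5% GCGTG, 24.6% TGACG, 45.0% GGGCGG, 7.26% CACGTG and 11.5% TATAAA, searched on both strands. A match is a stretch of letters and not a shown binding site.

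Levels were compared between genes as RPKM, the CPM per kilobase of annotated exon. In control wells 3 members stood far above the rest. PMAIP1, encoding the BH3-only protein NOXA that binds MCL1, was at 64.4 ± 6.53 RPKM, MCL1 at 59.3 ± 5.75 RPKM and BCL2L1 at 55.3 ± 1.34 RPKM (SD, n = 3 each), and neighbours among these overlapped. BID followed at 8.09 ± 0.690 RPKM, above the range of the next gene. BAX, BCL2L2 and BAK1, at 6.03 ± 0.578, 5.54 ± 0.120 and 5.49 ± 0.163 RPKM, overlapped as neighbours. BBC3, BCL2L11 and BCL2 formed the lowest group at 2.86 ± 0.480, 2.33 ± 0.0725 and 1.89 ± 0.330 RPKM, again with overlap between neighbours. Per length, the pro-survival transcripts of these cells were thus mostly MCL1 and BCL2L1, and the BH3-only transcripts mostly PMAIP1.

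After vitamin C treatment the same 3 genes led in another order. BCL2L1 was at 56.1 ± 4.60 RPKM, PMAIP1 at 50.7 ± 7.51 RPKM and MCL1 at 44.5 ± 2.25 RPKM (SD, n = 3 each), and the range of BCL2L1 (52.0 to 61.1) lay above that of MCL1 (42.1 to 46.5). BID was at 6.89 ± 1.39 RPKM and overlapped BAK1 at 5.74 ± 0.505, which overlapped BAX at 5.73 ± 0.340 and BCL2L2 at 5.33 ± 0.553 in turn. BBC3 (2.79 ± 0.225), BCL2L11 (2.31 ± 0.220) and BCL2 (1.60 ± 0.179) were lowest, with no overlap between these neighbours. The order within a group of similar genes depends on the length used. With the longest coding transcript as the length, MCL1 led in control wells at 93.3 ± 9.05 RPKM, and after treatment BCL2L1 was at 73.4 ± 6.02 RPKM (67.9 to 79.8) and MCL1 at 70.1 ± 3.55 RPKM (66.2 to 73.2), ranges that overlapped.

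**Figure D2:**
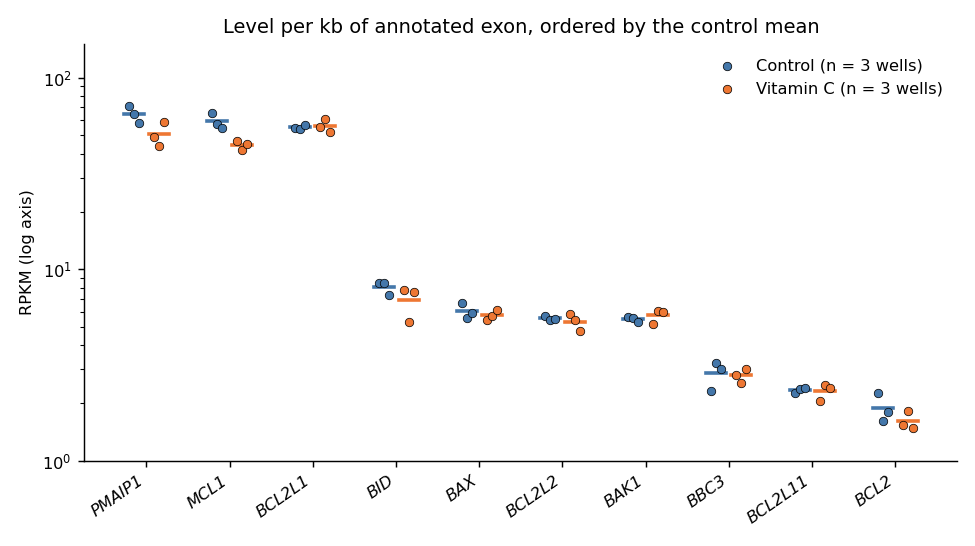
RPKM of each member in each well on a log axis, with genes in order of their control mean. Each point is a well and each line the mean of a group (n = 3 each). PMAIP1, MCL1 and BCL2L1 lie at 42.1 RPKM or more in every well, and the other 7 genes at 8.51 RPKM or less.

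Among the pro-survival genes, MCL1 fell, and BCL2L1, BCL2L2 and BCL2 did not pass the test. MCL1 encodes a short-lived protein that restrains BAK1 and binds NOXA, and the gene lies on chromosome 1 (150560895 to 150579738, minus strand, GRCh38 as are all positions here). Its level was 409, 357 and 340.3 CPM in control wells 1 to 3 and 289, 262 and 280.4 CPM in treated wells 1 to 3. Every treated well was below every control well, and control 1 was the highest. Control 1 had the lowest share of unmapped read pairs (24.2%), and vitamin C 2, with the lowest MCL1 level, had the highest (49.5%). Vitamin C 3, with a share of 24.7%, was also below every control well. The part of this share in the MCL1 values was not tested. The transcript fell by 24.9%, a log2FC of -0.41 (SE 0.08, 95% interval -0.60 to -0.23, edgeR adjusted p = 0.0224), and DESeq2 gave an adjusted p = 0.000309. The gene ranked 288 by p among the genes tested. The change did not pass without control 1 (log2FC -0.33, edgeR adjusted p = 0.0870) or without control 2 (-0.44, adjusted p = 0.0709), and all genes called in those fits numbered 128 and 142, in place of 1080. Over 15 alternatives, the log2FC lay between -0.47 and -0.29 and passed in 12, with adjusted p from 1.93e-05 to 0.0870. Exons of ADAMTSL4-AS1 on the same strand cover 5.27% of the exon length of MCL1, where reads cannot be assigned to either gene.

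BCL2L1 encodes Bcl-xL, which restrains BAX and BAK1, and lies on chromosome 20 (31664452 to 31723989, minus strand). Its level was 230, 228 and 238 CPM in control wells 1 to 3 and 232, 256 and 218 CPM in treated wells 1 to 3. Of the treated wells, 1 lay above, 1 within and 1 below the control range. Its log2FC was 0.02 (SE 0.08, edgeR adjusted p = 0.881), with a 95% interval of -9.75% to 14.3% for the change. It changed sign without vitamin C 2, the well with the highest level, where it was -0.04. Exons of ABALON, a non-coding RNA on the opposite strand, cover 41.3% of the exon length of BCL2L1. Across the files, 50.3% of 447 genes lying wholly under exons of the opposite strand had at least 10 counts, against 13.2% of 357 under exons of the same strand, the pattern of counting that kept the strands apart.

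BCL2, the founding member and a guard of mitochondria, lies on chromosome 18 (63123346 to 63320128, minus strand). Its level was 28.4, 20.3 and 22.6 CPM in control wells 1 to 3 and 19.3, 22.8 and 18.6 CPM in treated wells 1 to 3. Of the 3 treated wells, 2 lay below every control well and vitamin C 2 lay within the control range. Its log2FC of -0.23 (SE 0.13, 95% interval -0.52 to 0.06) did not pass (edgeR adjusted p = 0.279), and it was -0.09 without control 1. BCL2L2, encoding Bcl-w, on chromosome 14 (23298790 to 23311751, plus strand) had 27.4, 26.3 and 26.6 CPM in control wells and 28.2, 26.2 and 22.9 CPM in treated wells. Its groups overlapped, with a log2FC of -0.06 (95% interval -0.27 to 0.15) that was 0.02 without vitamin C 3. Exons of the read-through gene BCL2L2-PABPN1 on the same strand cover 16.8% of those of BCL2L2, where reads cannot be assigned to either gene.

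**Figure D3:**
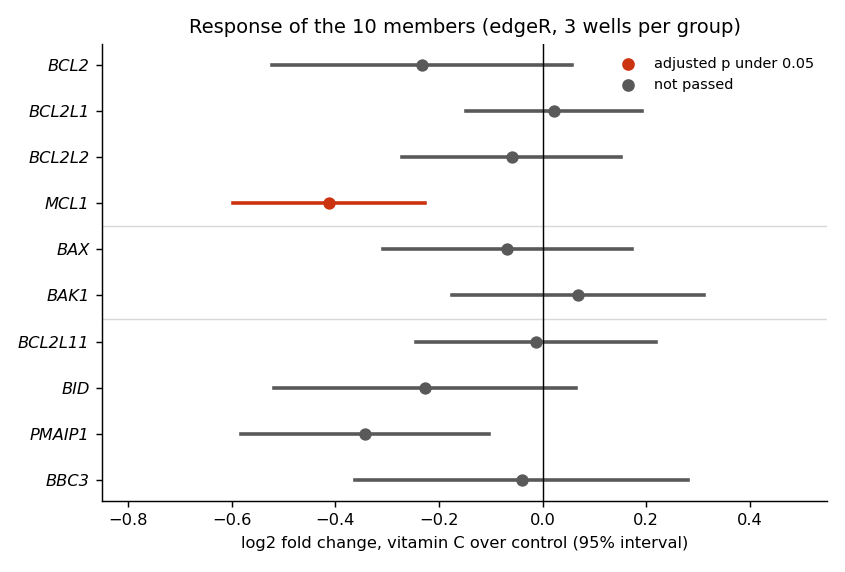
The edgeR log2FC of the 10 members, treated against control, with bars for the 95% interval and members ordered by role. Red marks an adjusted p under 0.05. MCL1 is the red point at -0.41, the interval of PMAIP1 (-0.58 to -0.10) lies below 0 although its adjusted p did not pass, and the other 8 intervals include 0.

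The summed RPKM of the 4 pro-survival genes was 128, 119 and 119 in control wells 1 to 3 and 109, 110.4 and 103 in treated wells 1 to 3. MCL1 made up 51.2%, 48.3% and 46.0% of that sum in control wells and 42.6%, 38.1% and 43.6% in treated wells. The share of BCL2L1 was 42.6%, 45.7% and 47.8% in control wells and 50.7%, 55.4% and 50.4% in treated wells. For the sum and both shares the groups did not overlap, which restates the lower MCL1 level and was not tested. The sums weigh each gene by its annotated exon length.

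Neither effector passed the test. BAX lies on chromosome 19 (48954815 to 48961798, plus strand) and encodes a protein that moves from the cytosol to mitochondria when activated. Its level was 17.3, 14.3 and 15.2 CPM in control wells 1 to 3 and 14.0, 14.7 and 15.8 CPM in treated wells 1 to 3. The groups overlapped, and the log2FC was -0.07 (SE 0.11, edgeR adjusted p = 0.727), with a 95% interval of -19.2% to 12.7% for the change. Without control 1 it was 0.0059. BAK1, whose protein resides in the mitochondrial membrane, lies on chromosome 6 (33572547 to 33580293, minus strand). Its level was 12.4, 12.3 and 11.7 CPM in control wells and 11.4, 13.4 and 13.3 CPM in treated wells. Here 2 treated wells lay above and 1 below the control range, with a log2FC of 0.07 (SE 0.11, edgeR adjusted p = 0.731, 95% interval -0.18 to 0.31). BAX CPM as a ratio to BCL2L1 CPM was 0.0751, 0.0630 and 0.0638 in control wells and 0.0603, 0.0573 and 0.0722 in treated wells, so the groups overlapped. By immunofluorescence, a measure of protein, the study reported more active Bax, largely unchanged total Bax and less Bcl-xL in this line after vitamin C. The length of treatment for that staining was not found in the study, while the RNA was taken after 3 days. RNA counts hold no information on protein levels, on activated Bax or on Bcl-xL bound by partners.

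Among the BH3-only genes, PMAIP1 had the largest difference and passed in DESeq2 but not in edgeR. It lies on chromosome 18 (59899996 to 59904305, plus strand), beside the promoter sequence shown above, and is induced by stress signals in many cells. Its level was 155, 142 and 126 CPM in control wells 1 to 3 and 108, 96.2 and 129 CPM in treated wells 1 to 3. The lowest levels were in vitamin C 1 and 2, while vitamin C 3 lay just above control 3. Its log2FC was -0.34 (SE 0.11, 95% interval -0.58 to -0.10), with an edgeR adjusted p = 0.0736 and a DESeq2 adjusted p = 0.0253. It passed in edgeR without vitamin C 3 (log2FC -0.47, adjusted p = 0.0119) and without a filter on low counts (adjusted p = 0.00138), and the adjusted p ranged up to 0.381 over 15 alternatives. Vitamin C 1 and 2 were also the libraries with the highest shares of unmapped read pairs, 40.7% and 49.5%, and vitamin C 3 had 24.7%, near the lowest control; the part of this share in the PMAIP1 values was not tested. PMAIP1 CPM as a ratio to MCL1 CPM was 0.378, 0.397 and 0.371 in control wells and 0.373, 0.368 and 0.459 in treated wells. Apart from vitamin C 3, both transcripts thus stood in nearly the same proportion in every well.

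**Figure D4:**
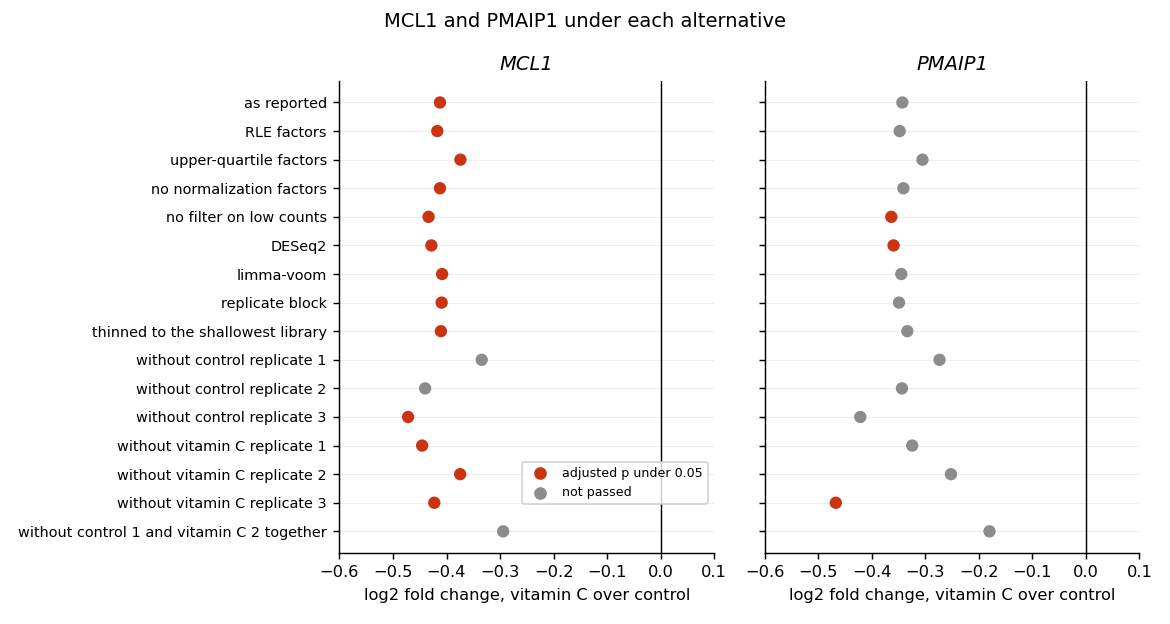
The log2FC of MCL1 and PMAIP1 as reported and under each of 15 alternatives. Red marks an adjusted p under 0.05 in that fit. All values lie below 0 for both genes, MCL1 passed in 12 of the 15 alternatives and PMAIP1 in 3.

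BID, the link from death receptors to mitochondria, lies on chromosome 22 (17734138 to 17774770, minus strand). Its level was 37.6, 37.4 and 32.2 CPM in control wells 1 to 3 and 34.4, 23.4 and 33.6 CPM in treated wells 1 to 3. Vitamin C 2 alone lay below every control well. Its log2FC of -0.23 (SE 0.13, 95% interval -0.52 to 0.07) did not pass (edgeR adjusted p = 0.297) and was -0.07 without vitamin C 2.

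BCL2L11, encoding the broad binder BIM, lies on chromosome 2 (111119378 to 111168444, plus strand). It had 15.1, 15.9 and 16.1 CPM in control wells and 13.9, 16.7 and 16.1 CPM in treated wells. Its log2FC was -0.01 (SE 0.11, edgeR adjusted p = 0.951), with a 95% interval of -15.6% to 16.3% for the change. Exons of MIR4435-2HG on the opposite strand cover 10.8% of its exon length. BBC3, encoding PUMA, a binder of all pro-survival proteins, lies on chromosome 19 (47220822 to 47232766, minus strand). It had 7.40, 10.3 and 9.60 CPM in control wells and 8.97, 8.11 and 9.53 CPM in treated wells, and all treated wells lay within the control range. Its log2FC was -0.04 (SE 0.15, edgeR adjusted p = 0.888), with a 95% interval of -22.2% to 21.5% for the change. For BCL2L11 the sign changed with upper-quartile factors (0.02) and without vitamin C 1 (0.06), and for BBC3 without control 2 (0.06) or vitamin C 2 (0.02).

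Summed over the 4 BH3-only genes, RPKM was 83.8, 78.9 and 70.4 in control wells and 62.0, 54.3 and 71.8 in treated wells, of which PMAIP1 made up 79.6% to 84.4%. The groups overlapped through vitamin C 3. The summed RPKM of the pro-survival genes over that of the effectors and BH3-only genes ranged from 1.32 to 1.46 over control wells and from 1.23 to 1.67 over treated wells, with vitamin C 3 below and vitamin C 1 and 2 above the control range.

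Of 11 other family genes, 6 passed the filter on low counts, and none of these 6 was called higher or lower by edgeR, by DESeq2 or at an unadjusted p under 0.05. BCL2L13, a mitochondrial membrane protein, had a log2FC of 0.16 with an SE of 0.08 (adjusted p = 0.211, edgeR). It was at 57.7, 61.4 and 65.5 CPM in control wells and 65.8, 69.3 and 70.9 CPM in treated wells. BCL2L13 was the 1 gene of the 6 with every treated well above every control well, and none had every treated well below. Over all genes tested these shares were 15.7% and 16.6%. The effector-like BOK was at 11.3 ± 1.13 and 10.9 ± 0.529 CPM, the BH3-only BAD at 15.3 ± 1.17 and 14.4 ± 1.77 CPM, BIK at 4.72 ± 0.511 and 5.09 ± 0.499 CPM, BMF at 3.94 ± 0.738 and 3.77 ± 1.06 CPM, and BCL2L12 at 10.9 ± 0.408 and 10.5 ± 0.406 CPM in control and treated wells (SD, n = 3 each). BCL2A1, BCL2L10, BCL2L14, BCL2L15 and HRK were not tested and had at most 7 counts in any library, with 0 in every library for BCL2L14. The list does not hold BNIP3 and BNIP3L, which the study names as BCL2 interacting proteins. The study reported both as lower, by RNA-seq and by qRT-PCR. In the fits used here both were called lower by edgeR and DESeq2, with log2FC of -1.24 and -0.67 (edgeR adjusted p = 3.44e-05 and 0.0067). They were named after their values were seen.

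Partners of the family in the mitochondrial pathway included a pair of lower transcripts. Of 16 such genes tested, edgeR called 2 lower and none higher, against 3.48% and 3.6% of all genes tested. DESeq2 called 2 lower and 1 higher, where it called 10.7% of the genes it tested, 6.36% lower. In edgeR 14 missed the threshold, and the median log2FC was -0.10. CYCS, encoding the cytochrome c that BAX and BAK1 pores release, was at 446, 394 and 369.8 CPM in control wells and 328, 324 and 316 CPM in treated wells, a log2FC of -0.32 ± 0.08 (SE) at an adjusted p of 0.0402 in edgeR. VDAC2, a channel of the outer membrane that holds BAK1 there, was at 65.9 ± 5.35 CPM in control wells and 50.5 ± 5.67 CPM in treated wells (SD, n = 3 each), a log2FC of -0.38 with an SE of 0.10 (adjusted p = 0.0420, edgeR). Every treated well was below every control well for both genes. That held for 6 of the 16 partners, called or not, and for 16.6% of all genes tested. For 1 partner every treated well was above every control well, against 15.7% of all genes tested. Neither passed with upper-quartile factors (adjusted p = 0.0526 and 0.0517 for CYCS and VDAC2), without control 1, control 2, vitamin C 1 or vitamin C 2, and VDAC2 also not without control 3 (adjusted p = 0.0579) or with library totals alone (0.0543). With the replicate number as a block CYCS did not pass (adjusted p = 0.0669). CASP8, the caspase that cleaves BID, was chosen after its values were seen; it had a log2FC of 0.32 (SE 0.10), with an edgeR adjusted p = 0.0663 and a DESeq2 adjusted p = 0.0461. CASP8 was highest in vitamin C 2 at 113 CPM, with 89.1 and 87.4 CPM in vitamin C 1 and 3, and without vitamin C 2 its log2FC was 0.19 (edgeR adjusted p = 0.173).

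Of 11 enzymes tested that modify BCL2 family proteins, none passed in edgeR or DESeq2. At an unadjusted p under 0.05 in edgeR 1 was higher and none was lower, against 27.4% of all genes tested in either direction. That was HUWE1, a ubiquitin ligase of MCL1, with a log2FC of 0.22 ± 0.08 (SE) at an adjusted p of 0.105 in edgeR. USP9X, the deubiquitinase that stabilizes MCL1, was at 996 ± 12.8 CPM in control and 1115 ± 103 CPM in treated wells (SD, n = 3 each), a log2FC of 0.16 with an SE of 0.08 (adjusted p = 0.210, edgeR).

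Of 16 transcription factors tested that are known to act on BCL2 family genes, edgeR and DESeq2 each called 2 higher and none lower, against 3.6% higher and 3.48% lower over all genes tested in edgeR. DESeq2 called 10.7% of the genes it tested, 6.36% lower. In edgeR 14 missed the threshold, and the median log2FC was -0.16, beside 0.02 over all genes tested. HIF1A, the oxygen-regulated subunit of hypoxia-inducible factor 1, rose to 1368 ± 61.1 CPM in treated wells against 842 ± 51.4 CPM in control wells (SD, n = 3 each), a log2FC of 0.70 ± 0.08 (SE) at an adjusted p of 0.0016 in edgeR, and passed in every alternative run. The counts give the level of the HIF1A transcript only. The protein and the activity of the factor were not measured in these libraries. TP63, a regulator of epithelial stem cells, rose from 1.85 ± 0.169 to 3.72 ± 0.676 CPM on 31 to 78 counts per library, a log2FC of 1.01 with an SE of 0.20 (adjusted p = 0.0209, edgeR). The call of TP63 was lost when control 1 (adjusted p = 0.0834), control 2 (0.0811) or vitamin C 2 (0.0502) was left out.

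**Figure D5:**
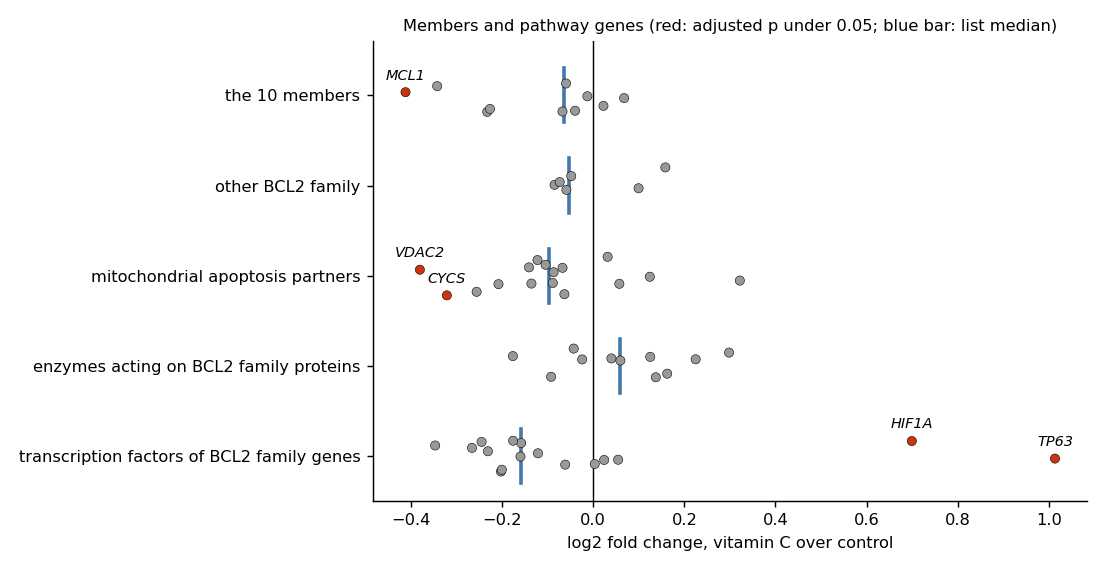
The edgeR log2FC, treated against control, of the 10 members and of the tested genes of 4 lists of related genes. Points are genes, red marks an edgeR adjusted p under 0.05 and blue bars are list medians. The red points are MCL1, CYCS and VDAC2 below 0 and HIF1A and TP63 above 0.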

How the data were processed

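The data were RNA-seq libraries of 6 wells of MDA-MB-231 cells, 3 control and 3 treated with 100 μM vitamin C for 3 days, grouped by their sample titles. The values are raw counts, which the authors deposited for each Ensembl identifier and library. Per the labels, the submitters used CASAVA 1.4 for base calling, Trim Galore for trimming and STAR with hg38 for alignment. Versions of the latter tools, the release of the annotation and the strandedness of counting were not found there or in the methods. Among 447 genes lying wholly under exons of the opposite strand, 50.3% had at least 10 counts, as against 13.2% of 357 genes lying wholly under exons of the same strand, which is the pattern of counting that kept the strands apart. The 4 summary lines of each file (50.6% to 69.7% of read pairs) were left out. Symbols, positions and exon lengths came from GENCODE 44 on GRCh38, which held 93.2% of the identifiers.

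The edgeR 4.0.16 quasi-likelihood fit (R 4.3.3) used all genes passing filterByExpr (minimum count 10) and p-values adjusted over all of them; intervals use its degrees of freedom. DESeq2 1.42.0 and limma 3.58.1 (voom), other factors, no filter, a replicate block, thinning and left-out libraries were alternatives. Log2 CPM had a prior count of 2. The fits were checked on simulated data, where edgeR recovered 44% of changes of 1.33-fold and 92% of changes of 1.5-fold (50 genes each). A change near 1.33-fold can thus go uncalled in this design. The members and gene lists were chosen with earlier results of these data known. Named were the members, the tested relatives, and in each list up to 4 called genes or the 2 most abundant, as well as the 3 genes whose log2 CPM correlated best with MCL1, the called member. Libraries of a group were distinct, with a chi-square of 4.99 to 24.3 per degree of freedom between their counts. A joint table with identical values was left out. One planned gene list and 1 gene are not reported here.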

Additional observations from a re-analysis of the deposited data

How the results depend on the processing

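The log2 fold changes of MCL1, PMAIP1, BCL2 and BID lay below 0 in each of the 15 alternatives run and that of BAK1 above 0, while MCL1 passed in 12 of them. MCL1 no longer passed without control 1 and vitamin C 2 together (log2 fold change -0.29, adjusted p = 0.0774). PMAIP1 passed with DESeq2 (-0.36) and with no filter on low counts (-0.36), so that both settings called 2 members in place of 1. Without control 1 and vitamin C 2 together, 0 members and 268 genes in all were called. With no filter 2245 genes were called. The sign changed for BCL2L1 with no filter on low counts (-0.0011), without vitamin C 2 (-0.0445) and without control 1 and vitamin C 2 together (-0.0514), for BCL2L11 with upper-quartile factors (0.0235) and without vitamin C 1 (0.0580), for BAX without control 1 (0.0059) and without control 1 and vitamin C 2 together (0.0159), for BBC3 without control 2 (0.0579) and vitamin C 2 (0.02), and for BCL2L2 without vitamin C 3 (0.0205). The cause was not tested.

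With single wells left out, all calls numbered 128 to 1900 and lower members 0 to 2, with 0 higher. The log2 fold change ranged from -0.47 to -0.33 for MCL1, -0.47 to -0.25 for PMAIP1, -0.34 to -0.09 for BCL2, -0.32 to -0.07 for BID, -0.0445 to 0.0736 for BCL2L1, -0.13 to 0.0205 for BCL2L2, -0.13 to 0.0059 for BAX, 0.03 to 0.13 for BAK1, -0.0626 to 0.0580 for BCL2L11 and -0.17 to 0.0579 for BBC3. Lower partner genes numbered 0 to 2 and higher ones 0 to 1, higher transcription factors 1 to 2 and lower ones 0 to 1, and higher modifying enzymes, mesenchymal markers and luminal markers 0 to 1 each. Upper-quartile factors gave 0 lower partners, and library totals alone gave 1 lower partner. Of all calls, 64.6% were higher with upper-quartile factors and 50.8% as reported.

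Whether same-numbered wells were handled together is not stated in the labels. Their deviations from the group means correlated at -0.06 to -0.02, and those of differently numbered wells at -0.05 to 0.11. Such deviations cancel out within a group, so these correlations cannot exclude a shared batch. With the replicate number as a block 731 genes were called and 1 member, MCL1 (-0.41, adjusted p = 0.0316), with 1 lower partner. For BBC3, the least counted member, the interval of the change ran from -22.2% to 21.5%, on 112 to 233 counts per library and a coefficient of variation of 16.8% between control wells.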

Other observations

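Over the 6 libraries, the genes whose log2 CPM followed MCL1 most closely among 10140 compared were VEZT (Pearson r = 0.999), ERI1 (0.999) and FRYL (0.997). The points share libraries and the group difference, so this is a description only, and ERI1 was called lower (log2 fold change -0.30, edgeR adjusted p = 0.0447) while VEZT and FRYL had log2 fold changes of -0.17 and -0.16 that did not pass (adjusted p = 0.141 and 0.152).

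ABALON, a long non-coding RNA on the strand opposite BCL2L1 whose exons cover 41.3% of the exon length of that gene, had 65, 88 and 85 counts in control 1, 2 and 3 and 60, 101 and 113 counts in vitamin C 1, 2 and 3. In CPM these were 3.70, 3.91 and 4.23 in control wells and 4.45, 7.32 and 5.67 in treated wells. Every treated well was thus above every control well, as for 15.7% of all genes tested. The log2 fold change was 0.56 (SE 0.19) and did not pass (edgeR adjusted p = 0.0882). ABALON was named after its values were seen. MIR4435-2HG, which overlaps BCL2L11 on the opposite strand, differed by a log2FC of -0.08 ± 0.07 (SE) at an adjusted p of 0.493 in edgeR.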
